A study of Mus musculus with 16 samples.

Results

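Axl, Mertk and Tyro3 are the receptors of the TAM family, and Gas6 and Pros1 encode their ligands. These 5 genes were taken by symbol from the deposited expression table of microglia sorted by their uptake of amyloid, and 4 of them (Axl, Mertk, Gas6 and Pros1) had a row among the 17951 genes listed. Tyro3 was not analysed here. The RNA came from sorted Cd11b+ and Cd45+ brain cells (by the methods also CX3CR1+) of 5xFAD transgenic mice (TG), a line that deposits amyloid beta (Aβ), and of wild-type mice (WT). Every mouse, WT included, was injected with Methoxy-X04 (Me-X04), a fluorescent dye that reaches the brain and stains Aβ aggregates, and cells were sorted by the dye they had taken up. There were 7 libraries of dye-negative microglia from WT mice, 5 of dye-negative microglia from TG mice (TG Me-X04-) and 4 of dye-positive, Aβ-laden microglia from TG mice (TG Me-X04+). Libraries 1 to 4 of TG Me-X04- and of TG Me-X04+ carry the same 4 numbered genotype labels, read here as 4 animals that gave both fractions. The labels give an age of 2 months for WT and 6 months for TG mice, while the study's methods give other ages, so in both comparisons with WT genotype and the labelled age cannot be told apart.

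TAM receptors are receptor tyrosine kinases that do not bind a dying cell directly. The vitamin K dependent proteins Gas6 and protein S, the product of Pros1, bridge the receptor to phosphatidylserine exposed on the dying cell or on debris, and the receptor then drives engulfment and dampens cytokine signalling. Gas6 binds both Axl and Mertk, whereas protein S binds Mertk and Tyro3 and is not regarded as a ligand of Axl. In the brain Mertk is a gene of resting microglia, while Axl is known as an inducible receptor of activated, disease-associated microglia.

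The values were log2 RPKM, that is reads per kilobase of gene length, scaled by library size, in log2, so levels of different genes can be compared per length. The libraries held between 15623664 and 27579017 reads on the listed genes. Every member was well above the counting floor of 3 reads, with at least 51 reads for Axl, 8079 for Mertk, 119 for Gas6 and 3766 for Pros1 in any library. When the group means were taken out, the leading principal component (37.8% of the remaining variance) parted the libraries into 2 sets, set A with 7 libraries (WT 1 to 3, libraries 1 and 2 of both TG groups) and set B with the other 9. The study's methods name 2 sequencers without saying which library was run on which, and results are therefore also given within the sets. Groups were compared with limma on the log2 values, with Benjamini-Hochberg adjustment over all 17951 genes, and genes with an adjusted p under 0.05 were called differentially expressed (DE) if their log2 fold change (log2FC) reached 0.7 in either direction. In bulk RNA, fewer cells that express a gene and less of its RNA per cell cannot be told apart.

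On the mouse genome GRCm38, Axl (ENSMUSG00000002602) lies on the minus strand of chromosome 7 (25757273 to 25788705) and Mertk (ENSMUSG00000014361) on the plus strand of chromosome 2 (128698956 to 128802894). Gas6 (ENSMUSG00000031451) lies on the minus strand of chromosome 8 (13465374 to 13494490) and Pros1 (ENSMUSG00000022912) on the plus strand of chromosome 16 (62854307 to 62929346). All 4 are protein-coding. The promoters of both receptors are shown here because their RNA levels parted in these cells. Each line gives the 250 bases before the RefSeq start of the gene (build GRCm38.p6), 5′ to 3′ on the strand of the gene, and capitals mark matches to a GC box (GGGCGG) or to the core of the PU.1 site (GAGGAA) on either strand.
Axl promoter, chr7:25788734-25788983, minus strand: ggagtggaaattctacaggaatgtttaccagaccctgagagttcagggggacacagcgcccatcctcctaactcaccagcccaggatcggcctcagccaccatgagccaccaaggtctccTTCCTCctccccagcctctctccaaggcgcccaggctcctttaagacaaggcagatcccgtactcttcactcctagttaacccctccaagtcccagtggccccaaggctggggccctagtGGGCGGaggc
Mertk promoter, chr2:128698665-128698914, plus strand: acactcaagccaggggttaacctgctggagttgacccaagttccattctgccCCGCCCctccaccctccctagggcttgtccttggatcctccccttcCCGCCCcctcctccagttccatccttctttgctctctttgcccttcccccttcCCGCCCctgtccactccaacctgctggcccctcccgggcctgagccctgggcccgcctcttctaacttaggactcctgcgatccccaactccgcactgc

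The Axl promoter held 1 GC box and 1 PU.1 core, and the Mertk promoter held 3 GC boxes and no PU.1 core. Among 32851 promoters of the same length, 32.7% held a GC box and 23.3% a PU.1 core, the binding core of the transcription factor that specifies myeloid cells. GC content was 60% for Axl, with 5 CpG dinucleotides, and 63.6% for Mertk, with 7, against a median of 52.4% over all promoters. Neither window held a match to AP-1 (TGANTCA, 6.75% of promoters), CRE (TGACGTCA, 1.55%), STAT (TTCNNNGAA, 7.02%), the E-box (CACGTG, 6.02%), TATAAA (12.4%) or CCAAT (33.8%). These matches describe the letters of the windows and no binding was measured.

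Axl, a receptor low in resting microglia, rose at both steps, from WT to TG Me-X04- and from there to TG Me-X04+. In WT microglia its log2 RPKM ran from -0.52 to 1.14, with a median of 0.48 over the 7 libraries. In the TG Me-X04- libraries 1 to 5 it was 4.37, 3.42, 3.12, 3.48 and 2.90, and in the TG Me-X04+ libraries 1 to 4 it was 6.46, 6.50, 6.55 and 6.27. The 3 groups did not overlap. Library 1 was the highest of TG Me-X04-, and the TG Me-X04+ libraries lay closer together than those of the other groups. On the linear scale Axl went from 0.698 to 2.20 RPKM in WT to 7.49 to 20.7 in TG Me-X04- and 77.3 to 93.5 in TG Me-X04+. Among the 17951 genes of a library it ranked between 10023 and 14069 in WT, between 1585 and 4459 in TG Me-X04-, and between 366 and 422 in TG Me-X04+, where rank 1 is the highest level.

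**Figure D1:**
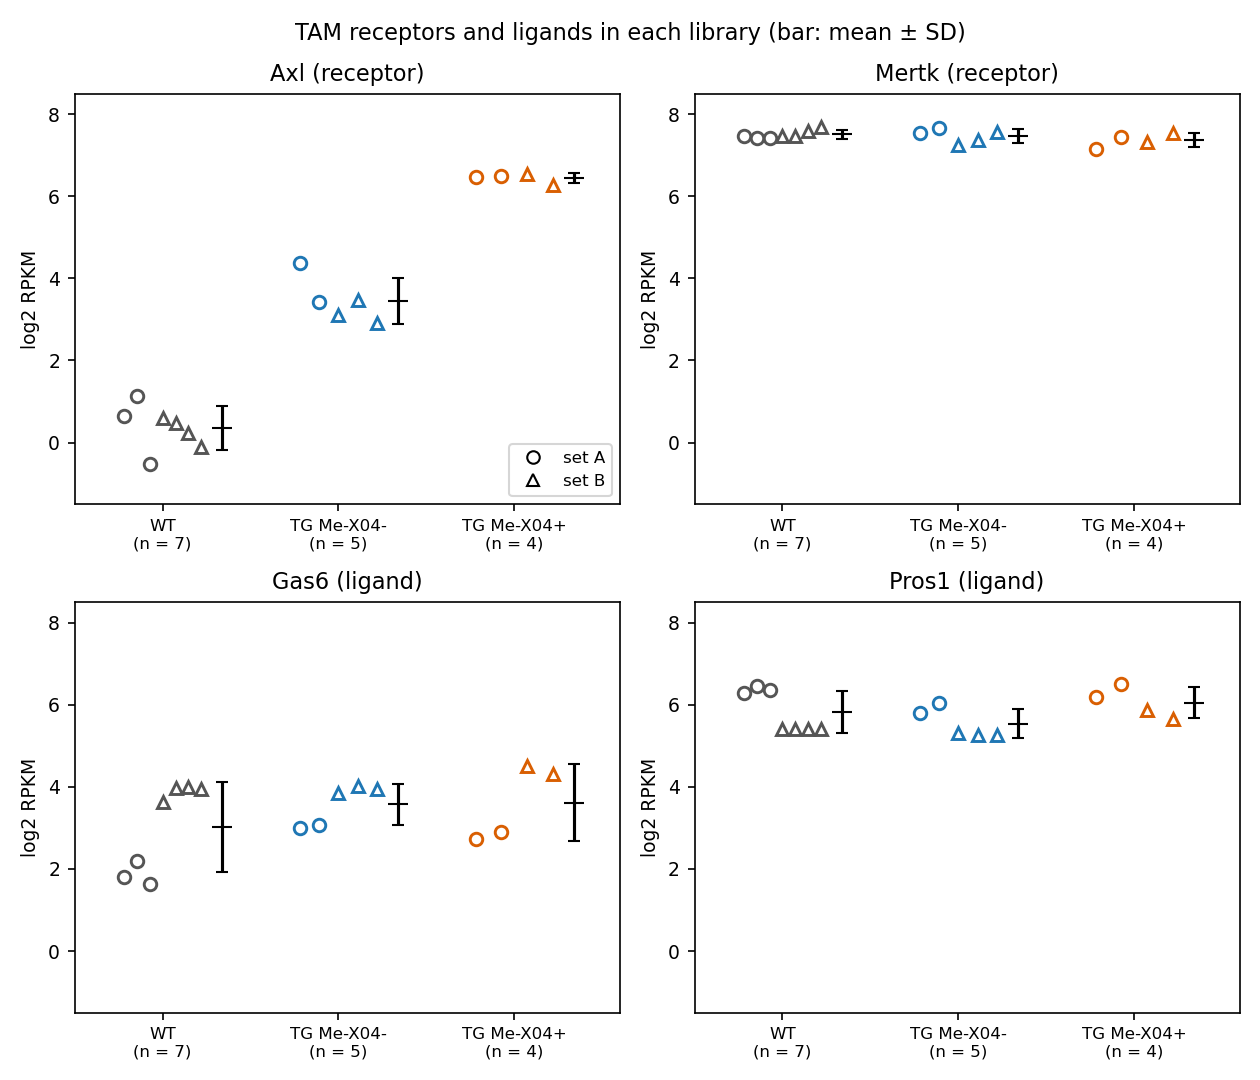
Level of each TAM member in each library (vertical axis, log2 RPKM, the same scale in all 4 panels) for the 3 groups of microglia. Each symbol is 1 library, circles for set A and triangles for set B, and the bar is the mean ± SD of the group. Axl separates into 3 levels, Mertk stays between 7.14 and 7.69, and circles and triangles part for Gas6 and Pros1.

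Axl averaged 0.36 ± 0.54 (SD, n = 7), 3.46 ± 0.56 (n = 5) and 6.44 ± 0.12 (n = 4) log2 RPKM across the 3 groups in the order WT, TG Me-X04-, TG Me-X04+. Between TG Me-X04- and WT it was DE with a log2FC of 3.10 (SE 0.28, limma, Benjamini-Hochberg adjusted p = 6.31e-05), 1 of 4 members called where 0.201% of all genes were. In TG Me-X04+ against TG Me-X04- the log2FC was 2.99 (SE 0.32, limma, Benjamini-Hochberg adjusted p = 8.16e-05), again with 1 of 4 members called, where 5.49% of all genes were DE. Against WT, Axl in TG Me-X04+ was 68.1 times as high (log2FC 6.09, SE 0.30, limma, Benjamini-Hochberg adjusted p = 4.12e-09), and 14.3% of all genes were DE. Values did not overlap between the groups for 1.06%, 7.93% and 10.5% of all genes in these comparisons, and for 1 of 4 members (Axl) in each. The 3 comparisons share libraries and are not independent of each other.

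Within set A the step from WT to TG Me-X04- was 3.47, and within set B it was 2.86, and that from TG Me-X04- to TG Me-X04+ was 2.59 and 3.24. With the 7 libraries of set A alone the limma adjusted p of these steps was 0.126 and 0.0859, so neither was called there, while both were called in set B alone and with each library left out in turn. Within the 4 animals with both fractions, Axl was higher in the TG Me-X04+ library by 2.09, 3.09, 3.43 and 2.79 on the log2 scale, that is in 4 of 4 animals. With the animal as a block in limma, 2110 genes in place of 986 were DE in TG Me-X04+ against TG Me-X04-, and Axl kept a log2FC of 2.93.

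Mertk, the TAM receptor that dominates in resting microglia, was not DE in any comparison. Its log2 RPKM ran from 7.41 to 7.69 in WT, with a median of 7.47. In the TG Me-X04- libraries it was 7.53, 7.65, 7.25, 7.36 and 7.56, and in the TG Me-X04+ libraries 7.14, 7.44, 7.32 and 7.53. The values of the 3 groups overlapped, and the whole range over the 16 libraries was narrower than that of Axl within WT alone. The means were 7.50 ± 0.10 (SD, n = 7), 7.47 ± 0.16 (n = 5) and 7.36 ± 0.17 (n = 4).

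The log2FC of Mertk was -0.03 between TG Me-X04- and WT, with a 95% interval from -0.34 to 0.27 (limma, Benjamini-Hochberg adjusted p = 0.999). In TG Me-X04+ against TG Me-X04- it was -0.11, with an interval from -0.46 to 0.24 (limma, adjusted p = 0.781), and between TG Me-X04+ and WT it was -0.14, with an interval from -0.47 to 0.18 (limma, adjusted p = 0.609). All 3 intervals lie inside the fold limit of 0.7 in both directions. The choice of scaling mattered for Mertk. After quantile normalization, which gives every library the same distribution of values, Mertk was DE and lower in TG Me-X04+, at -0.79 on the log2 scale against TG Me-X04- (limma, adjusted p = 0.0406) and at -0.86 against WT (limma, adjusted p = 0.00629). Its rank among the genes of a library ran from 91 to 146 in WT, from 94 to 141 in TG Me-X04- and, without overlap, from 183 to 229 in TG Me-X04+. The scaled library size was 0.543 to 0.981 times the reads counted in the TG Me-X04+ libraries, against 0.790 to 1.43 times in the other groups, and the part of this difference in the levels was not tested.

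**Figure D2:**
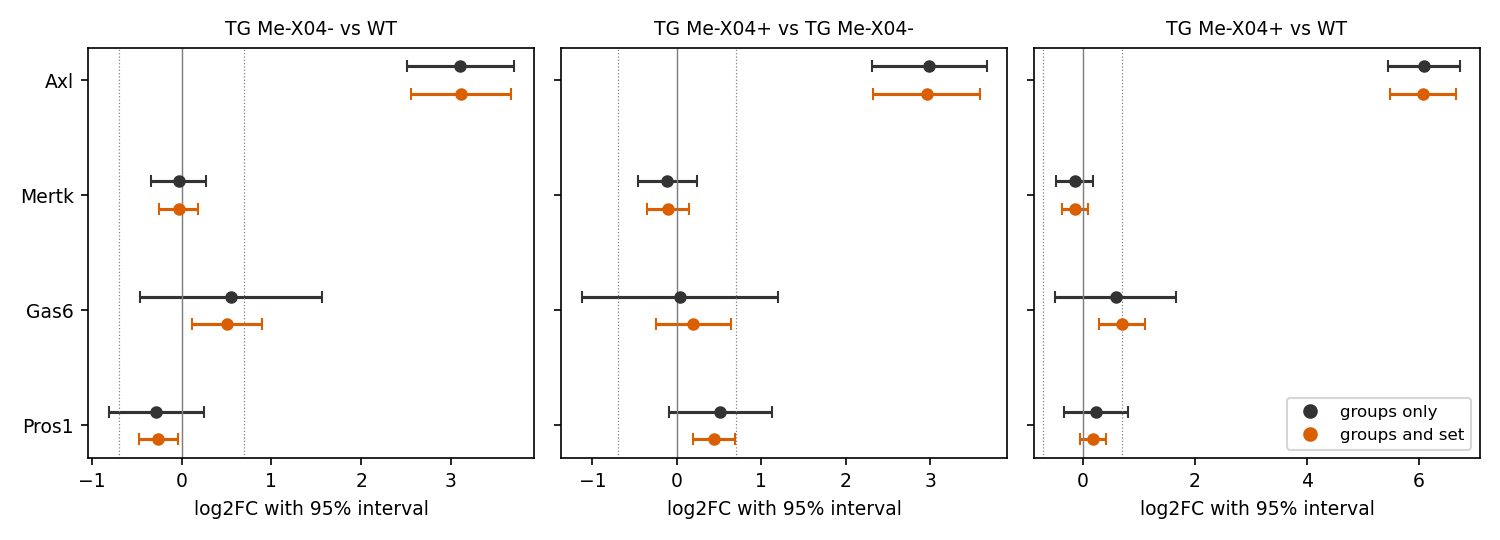
Log2FC of Axl, Mertk, Gas6 and Pros1 (horizontal axis, log2 scale, with 95% intervals) in the 3 comparisons, from limma with the groups alone (black) and with a term for the set of libraries (orange). Dotted lines mark the fold limit of 0.7, beyond which all intervals of Axl lie. The intervals of Gas6 and Pros1 are narrower with the set term.

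Because both receptors are measured in the same library, the difference of their log2 values does not depend on a factor that scales the whole library. Axl minus Mertk was -7.15 ± 0.59 (SD, n = 7) in WT, ranging from -7.95 to -6.27. It was -4.01 ± 0.55 (n = 5) in TG Me-X04-, from -4.66 to -3.16, and -0.91 ± 0.25 (n = 4) in TG Me-X04+, from -1.26 to -0.68. The 3 groups did not overlap, and Mertk stayed above Axl in all 16 libraries. The change was 3.14 from WT to TG Me-X04- (exact two-sided permutation p = 0.00253, adjusted p = 0.00758 over 3 comparisons) and 3.10 from TG Me-X04- to TG Me-X04+ (exact permutation p = 0.0159, adjusted p = 0.0159). From WT to TG Me-X04+ it was 6.23 (exact permutation p = 0.00606, adjusted p = 0.00909). Each unadjusted p is the smallest that the group sizes allow. Paired within the 4 animals, the second step was 2.94, and the exact sign-flip permutation p was 0.125, the smallest that 4 pairs can give.

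As a share of the summed RPKM of both receptors, Axl made up 0.404% to 1.28% in WT, 3.81% to 10.1% in TG Me-X04- and 29.4% to 38.4% in TG Me-X04+, with medians of 0.790%, 5.40% and 35.6%. Mertk RNA was on average 152 ± 61.9 (SD), 17.0 ± 5.95 and 1.91 ± 0.35 times as abundant per length as Axl RNA. With the deposited scaling, the summed level of both was 172 to 207 RPKM for WT libraries and 161 to 212 for TG Me-X04- libraries. For TG Me-X04+ libraries it was 229 to 264, above every library of the other groups. Unlike the share, the sum depends on how libraries are scaled. After quantile normalization Mertk in TG Me-X04+ was at -0.86 against WT, and Axl at 5.70 in place of 6.09. Whether the sum stays above the other groups with that scaling was not tested.

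**Figure D3:**
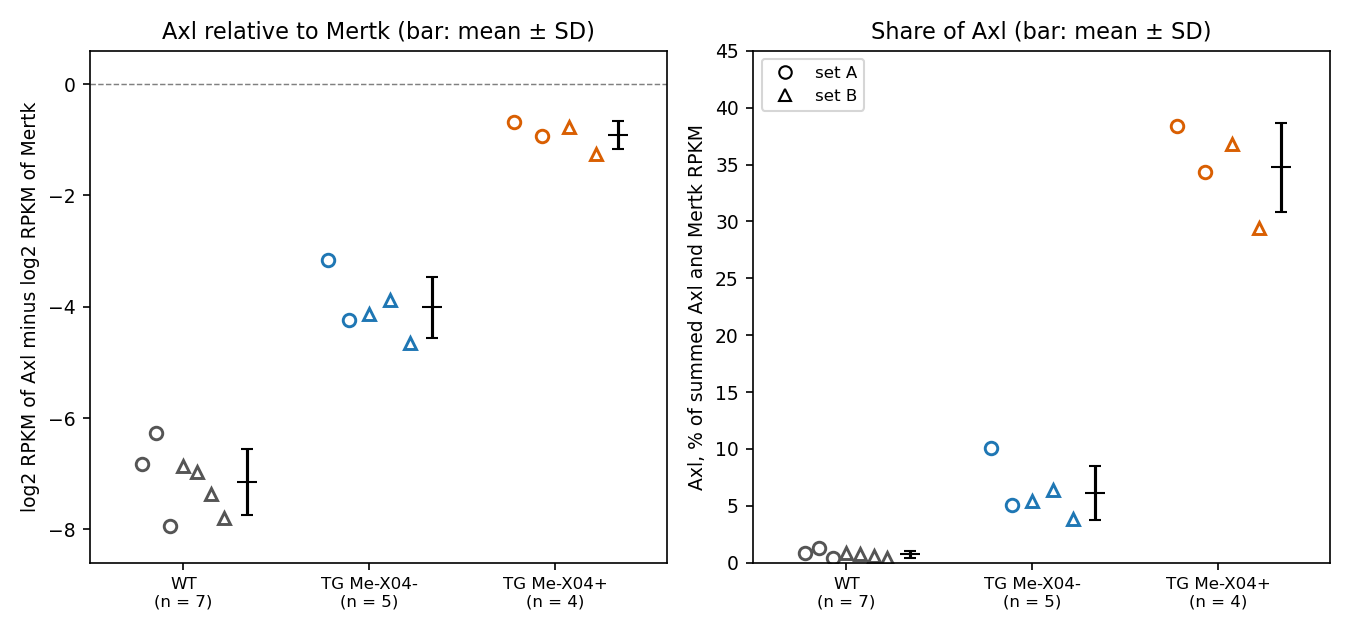
Axl relative to Mertk in each library of the 3 groups, as the difference of their log2 RPKM (left) and as the percent of Axl in the summed RPKM of both receptors (right, linear axis from 0). Symbols are libraries (circles set A, triangles set B) and bars are the mean ± SD. The groups stand apart in both panels, and the TG Me-X04+ libraries lie between 29.4% and 38.4%.

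Neither ligand was DE, and both differed more between the 2 sets of libraries than between the groups. For Gas6, the ligand shared by Axl and Mertk, the WT libraries 1 to 3 (set A) had log2 RPKM of 1.80, 2.19 and 1.64 and the WT libraries 4 to 7 (set B) 3.64, 3.97, 3.99 and 3.95. The TG Me-X04- libraries had 2.99 and 3.08 in set A and 3.85, 4.01 and 3.96 in set B, and the TG Me-X04+ libraries 2.73 and 2.90 in set A and 4.51 and 4.32 in set B. Set B was thus higher in each group, by 2.01, 0.90 and 1.60 on the log2 scale. Gas6 averaged 3.03 ± 1.09 (SD, n = 7), 3.58 ± 0.50 (n = 5) and 3.61 ± 0.93 (n = 4).

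The log2FC of Gas6 was 0.55 between TG Me-X04- and WT (SE 0.48, limma, adjusted p = 0.999) and 0.59 between TG Me-X04+ and WT (SE 0.52, limma, adjusted p = 0.510). Between TG Me-X04- and WT the sets were unlike, with a log2FC of 1.16 within set A and 0.05 within set B. In TG Me-X04+ against TG Me-X04- it was 0.04, with a wide interval from -1.13 to 1.20 (limma, adjusted p = 0.983), -0.22 within set A and 0.47 within set B. With a term for the set, the adjusted p of TG Me-X04+ against WT was 0.0143 (limma) at a log2FC of 0.70, just under the fold limit, and 25.3% of all genes had an adjusted p under 0.05 in that fit. Within set A these groups differed by 0.94, and within set B by 0.53.

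Pros1, which encodes protein S, was the more abundant ligand in all 16 libraries. The WT libraries had log2 RPKM of 6.28, 6.47 and 6.36 in set A and 5.40, 5.42, 5.41 and 5.40 in set B. The TG Me-X04- libraries had 5.80 and 6.04 in set A and 5.31, 5.27 and 5.27 in set B, and the TG Me-X04+ libraries 6.18 and 6.51 in set A and 5.86 and 5.66 in set B. Here set A was the higher set in each group, by 0.96, 0.64 and 0.58, the opposite order to Gas6. Group means were 5.82 ± 0.52 (SD, n = 7), 5.54 ± 0.36 (n = 5) and 6.05 ± 0.37 (n = 4).

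The log2FC of Pros1 was -0.28 between TG Me-X04- and WT (SE 0.25, limma, adjusted p = 0.999) and 0.23 between TG Me-X04+ and WT (SE 0.27, limma, adjusted p = 0.635). In TG Me-X04+ against TG Me-X04- it was 0.51, with an interval from -0.09 to 1.12 (limma, adjusted p = 0.364), and the groups overlapped. In the same animals Pros1 was higher in the TG Me-X04+ library in 4 of 4, by 0.37, 0.47, 0.55 and 0.39, and by group means it was higher by 0.42 in set A and by 0.48 in set B. With a term for the set the log2FC was 0.44 (SE 0.12, limma, adjusted p = 0.0191), below the fold limit, where 13.5% of all genes passed at any fold. With the animal as a block the adjusted p was 0.166 (limma).

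The ratio of the ligands differed between the sets. Pros1 was 7.02 to 26.4 times as abundant per length as Gas6 in the 7 libraries of set A. In the 9 of set B it was 2.39 to 3.38 times as abundant. Within set A the ratio also differed between the groups. There it was 22.3, 19.4 and 26.4 in WT, 7.02 and 7.78 in TG Me-X04-, and 10.9 and 12.3 in TG Me-X04+. Over the 16 libraries the deviations of the ligands from their group means had a Pearson r of -0.93, which is given as a description since the libraries share their set, and that of Axl with Mertk was -0.10. Levels of Gas6 and Pros1 set side by side therefore depend on the set, while Axl and Mertk differed between the sets by at most 0.20 for Mertk and 0.72 for Axl in any group.

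The order of the levels per length changed with the group. In WT it was Mertk, Pros1, Gas6 and Axl, in 7 of 7 libraries, with ranges that did not touch. In TG Me-X04- Mertk and Pros1 led in 5 of 5 libraries, but Gas6 exceeded Axl in 3 of 5. These were the 3 libraries of set B, while Axl exceeded Gas6 in both libraries of set A. The mean difference of 0.12 ± 0.98 on the log2 scale was within its spread. In TG Me-X04+ Axl came second by its mean, and it was below Mertk by 0.91 ± 0.25, in 4 of 4 libraries. There it was above Pros1 in 3 of 4 libraries, by 0.39 ± 0.32, with overlapping ranges, and Gas6 was the lowest of the 4 members in every library.

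The other genes of the pathway were followed in 8 lists with 74 listed members. Between TG Me-X04- and WT none of the 74 was DE in limma, beside 36 (0.201%) of all 17951 genes, so the count of 0 is near that share. At an unadjusted p under 0.05 were 3 of the 74, beside 929 of all genes. Limma voom on the reads recovered from the values gave 0 DE of the 74, beside 25 of all genes. With voom 7 of the 74 had an unadjusted p under 0.05, beside 936 of all genes. In TG Me-X04+ against TG Me-X04- 6 of the 74 (8.11%) were DE, beside 5.49% of all genes. In this comparison 10 were DE with the animal as a block (11.8% of all genes) and 10 with a set term (11.9%), 0 in set A alone (0.474%, with 16 of the 74 at an unadjusted p under 0.05) and 14 in set B alone (12.6%). Between TG Me-X04+ and WT 15 (20.3%) were DE, beside 14.3% of all genes, and 7 in set A alone, beside 9.2%. The split of all DE genes into higher and lower depended on the scaling. In TG Me-X04+ against TG Me-X04- 617 genes were higher and 369 lower, but 421 and 407 after quantile normalization and 309 and 721 when libraries were scaled by the reads outside mitochondrial genes. Against WT the 1481 higher and 1081 lower genes became 1227 and 1528 with the latter scaling. The 6 and 15 listed DE genes kept their direction with both of these scalings and with median centring, while Elmo1 against TG Me-X04- was not DE with median centring (limma, adjusted p = 0.0974), and Trem2 against TG Me-X04- (0.0730) and Stat2 (0.0515) and Tub (0.0611) against WT were not DE after quantile normalization. Gas6 and protein S need vitamin K dependent carboxylation. Of 4 listed genes of that cycle, Vkorc1, the vitamin K epoxide reductase, rose in TG Me-X04+ against WT by 1.97 on the log2 scale (limma, adjusted p = 0.0119), from a mean of 5.38 ± 0.92 to 7.35 ± 0.90. Against TG Me-X04- the Vkorc1 difference was 1.65 (limma, adjusted p = 0.0852, or 0.000211 with a set term). The median over the 4 genes was -0.34 against WT, beside -0.11 over all genes. Of the other proteins reported as TAM ligands, Tub fell by 2.74 against WT (limma, adjusted p = 0.00452) at a level of only 0 to 5 reads in the TG Me-X04+ libraries.

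None of the 8 genes for shedding and processing of the receptors, among them the sheddases Adam10 and Adam17, was DE in any comparison by limma or by limma voom. At most 1 had an unadjusted p under 0.05 in a comparison. Of all genes, 0.201% were DE in limma between TG Me-X04- and WT, 5.49% in TG Me-X04+ against TG Me-X04- and 14.3% between TG Me-X04+ and WT. Adam10 had mean levels of 5.08 ± 0.19, 5.01 ± 0.34 and 4.86 ± 0.22 log2 RPKM across the 3 groups in the order WT, TG Me-X04-, TG Me-X04+, and Adam17 4.75 ± 0.36, 4.50 ± 0.32 and 4.79 ± 0.52. The median log2FC of these genes was 0.05 from WT to TG Me-X04- and 0.35 from there to TG Me-X04+, beside 0.01 and -0.09 over all genes. None of the 6 nuclear receptors known to act on Mertk or Axl, and none of 7 genes for phosphatidylserine exposure, was DE by either test, with at most 2 and 1 at an unadjusted p under 0.05. Their medians were -0.44 and -0.22 in TG Me-X04+ against TG Me-X04-.

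Of 22 genes of TAM downstream signalling, 1 was DE in TG Me-X04+ against TG Me-X04- and 2 between TG Me-X04+ and WT, all lower, where 2.06% and 6.02% of all genes were DE and lower. These are small counts near the share over all genes. Elmo1, which with Dock proteins activates Rac during engulfment, fell by 0.70 against TG Me-X04- (limma, adjusted p = 0.0208) and by 0.95 against WT (limma, adjusted p = 0.000436). Its log2 RPKM was 5.61 to 6.14 in WT, 5.39 to 5.73 in TG Me-X04- and 4.62 to 5.11 in TG Me-X04+, so the TG Me-X04+ libraries lay below all others. Values did not overlap for 7.93% of all genes against TG Me-X04- and for 10.5% against WT. Vav2, a Rac exchange factor, fell by 1.07 against WT (limma, adjusted p = 0.00494). The median of the list was -0.21 and -0.10 in these comparisons, beside -0.09 and -0.11 over all genes.

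Of 8 listed genes of the interferon receptor and SOCS arm, through which TAM receptors dampen cytokine signals, Socs3 fell in TG Me-X04+. Its log2 RPKM was -0.32 to 1.51 in WT, 1.10 to 1.64 in TG Me-X04- and -2.05 to 0.36 in TG Me-X04+. The fall was 2.29 against TG Me-X04- (limma, adjusted p = 0.00748) and 1.58 against WT (limma, adjusted p = 0.0191). Stat2, which carries the interferon signal to the nucleus, rose against WT by 1.05 (limma, adjusted p = 0.0275), and its difference from TG Me-X04- of 0.50 did not pass.

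**Figure D4:**
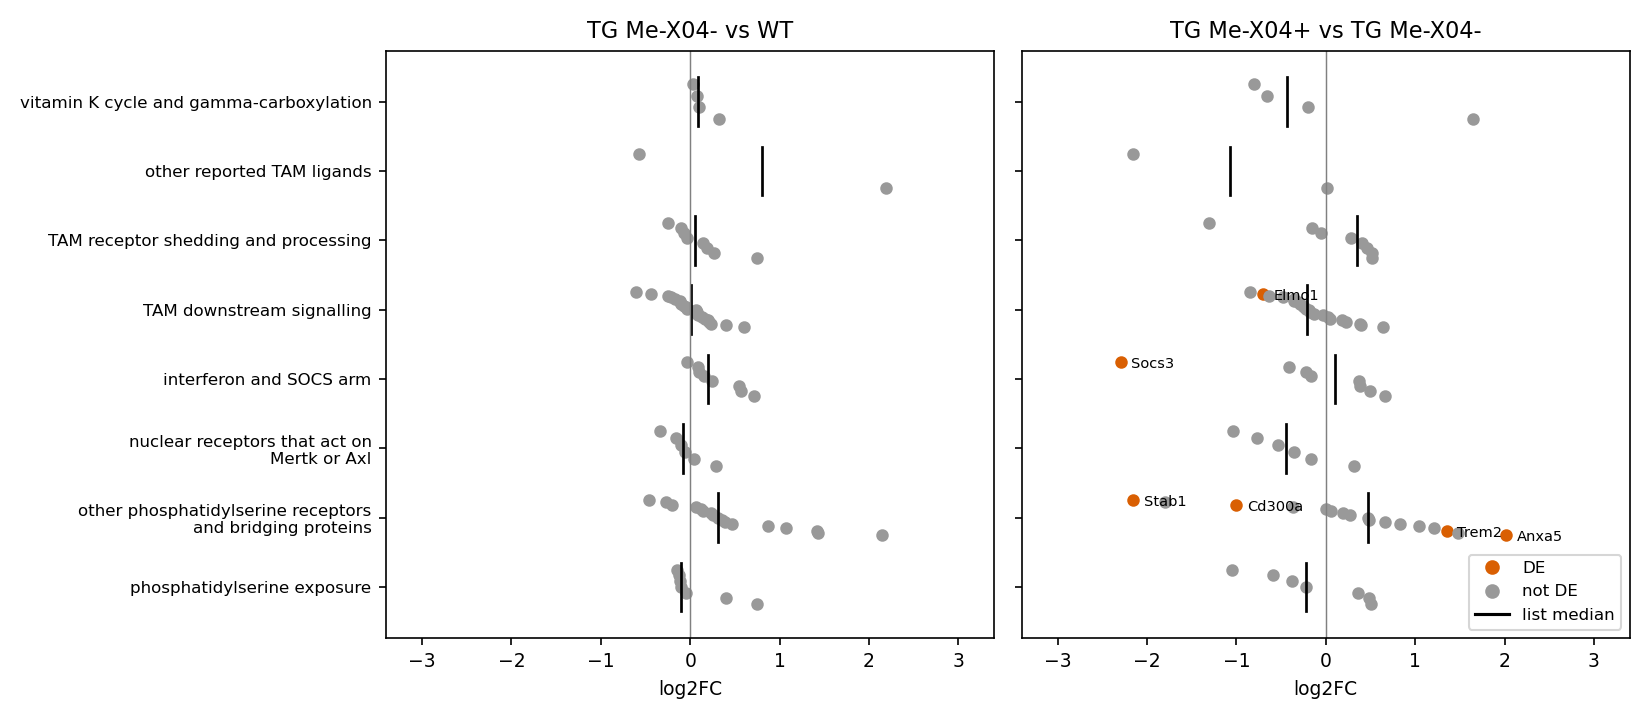
Log2FC of the listed genes around the TAM receptors (horizontal axis) between TG Me-X04- and WT (left) and in TG Me-X04+ against TG Me-X04- (right). Each point is 1 gene, orange where DE and named, and the black line is the median of the list. No point is orange on the left, and 6 are on the right.

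Among 17 listed genes for other phosphatidylserine receptors and bridging proteins, 2 rose and 2 fell in TG Me-X04+ against TG Me-X04-, where 3.44% of all genes rose and 2.06% fell. Anxa5, a protein that binds phosphatidylserine, rose by 2.02 (limma, adjusted p = 0.0119), with 2.19 to 3.07 log2 RPKM in TG Me-X04- and 4.22 to 4.86 in TG Me-X04+. Trem2, a lipid and Aβ sensing receptor of microglia, rose by 1.35 (limma, adjusted p = 0.0021), with 5.02 to 5.77 in TG Me-X04- and 6.21 to 7.14 in TG Me-X04+. Both groups stood apart for either gene. Values did not overlap for 7.93% of all genes in this comparison, and the genes named here were picked as DE. Stab1, a scavenger receptor for phosphatidylserine, fell by 2.15 (limma, adjusted p = 0.00126), with 3.82 to 4.62 in TG Me-X04- and 1.29 to 2.88 in TG Me-X04+. Cd300a, an inhibitory phosphatidylserine receptor, fell by 1.00 (limma, adjusted p = 0.0125), with 4.19 to 4.63 in TG Me-X04- and 2.76 to 3.91 in TG Me-X04+, again without overlap.

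Against WT, 6 of these 17 genes were higher and 2 lower in TG Me-X04+, beside 8.25% of all genes higher and 6.02% lower. Among these 8 DE genes the largest differences were in Anxa5 (3.09), Cd300lb (2.90), Stab1 (-2.42) and the bridging protein Mfge8 (1.51), with limma adjusted p values of 6.75e-05, 0.0281, 5.45e-05 and 0.0118. Cd300lb was a gene of few reads, 0 to 15 per WT library and 11 to 257 per TG Me-X04+ library. The median of the list was 0.74 against WT and 0.48 against TG Me-X04-.

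Genes whose levels followed each member over the 16 libraries were ranked by Pearson r among 8116 genes, as a description, since the libraries share group and set. Nearest to Axl were Lgals3bp (r 0.977), the cystatin gene Cst7 (0.977), the fungal pattern receptor gene Clec7a (0.974), the growth factor gene Csf1 (0.971) and Mir7117 (0.966), a miRNA gene that lies within Ank and Otulin, whose reads cannot be told apart here. All 5 had their lowest mean in WT and their highest in TG Me-X04+. Nearest to Mertk were March6 (0.867), Foxo3 (0.820), Lrp5 (0.809), Usp2 (0.807) and Stk4 (0.801). Nearest to Gas6 were Arf3 (0.969), the processed pseudogene Gm5621 (0.961) and Gnai2 (0.954), and nearest to Pros1 were Ccdc186 (0.962), Hist2h3c1 (0.960) and Tpp1 (0.954). For the 3 genes nearest to each ligand r was about as high on deviations from the group means, between 0.952 and 0.969, whereas for those nearest to Axl it was between 0.350 and 0.657.

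The markers of the sorted cells were checked beside these results. All 11 microglial markers were listed, with summed levels of 5650 to 8492 RPKM in WT, 5126 to 9211 in TG Me-X04- and 6114 to 8894 in TG Me-X04+. All 9 markers of border-associated macrophages, cells that also express TAM receptors, summed to 2.77 to 7.23, 3.51 to 9.30 and 5.31 to 25.7 RPKM. None of the 9 was at the floor of 3 reads in every library of a group. Their sum was higher in some TG Me-X04+ libraries, at a level below that of Axl alone in that group, and their part in the Axl result was not tested. Listed endothelial markers (4 of 8) summed to 2.55 to 13.8, 2.00 to 3.02 and 1.32 to 8.49 RPKM, and monocyte markers (4 of 7) to 2.32 to 4.29, 1.85 to 9.46 and 1.21 to 10.2. Of 7 neutrophil markers 3 were listed (S100a8, S100a9 and Ngp), and their sum had a median of 0.660 RPKM in WT (0.40 to 12.7), 0.599 in TG Me-X04- (0.489 to 26.0) and 7.93 in TG Me-X04+. In the TG Me-X04+ libraries 1 to 4 it was 21.0, 7.90, 7.96 and 0.40 RPKM. Library 4 was thus at the lowest sum seen in WT. Its Axl, at 6.27 log2 RPKM, was also the lowest of the TG Me-X04+ libraries, beside 6.46, 6.50 and 6.55 in libraries 1 to 3. The highest sum was in TG Me-X04- library 1, which also had the highest Axl of its group. The highest WT sum was in library 3, which had the lowest Axl of WT. These values are given as a description, and the part of these cells in the Axl result was not tested. In the same order of groups, the medians were 17.7, 18.7 and 11.9 RPKM for astrocyte markers (5 of 7 listed). Medians were 13.5, 14.3 and 12.3 for oligodendrocyte markers (5 of 6 listed), and 0.865, 0.685 and 0.164 for neuronal markers (3 of 9 listed). Only 1 of 6 mural markers (Acta2) and 2 of 9 lymphocyte markers (Cd79a and Cd79b) were listed. They summed to at most 4.87 and 4.47 RPKM in any library, and the markers without a row could not be judged. Mertk overlaps the antisense gene Gm14011 (81 to 439 reads in any library) and the small nucleolar RNA gene Gm23172 (17 to 454), and the 3′ end of Gas6 overlaps Tmem255b on the other strand. The strand setting of the counting is not given in the sources used here, so reads of these overlaps cannot be assigned with certainty.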

How the data were processed

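RNA of 16 libraries of sorted mouse microglia was measured by RNA sequencing. Per the labels and the study's methods, the authors trimmed reads with Trim Galore 0.4.4, aligned them to GRCm38 with STAR 2.5.4b, counted them per gene with featureCounts, removed lowly expressed genes and scaled libraries by TMM (edgeR 3.24.3). The authors deposited log2 RPKM values with a small prior added, which shrinks fold changes at low read numbers. The table also holds fold changes and p-values of their own comparisons, which were not used. Reads were recovered from the equal steps of the values (100% whole within 0.01) for depths and for 1 alternative, and floors cover counting error only.

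Limma 3.58.1 (R 4.3.3) tested the log2 values of 17951 genes (eBayes with a variance trend, 3 groups in 1 fit, two-sided, Benjamini-Hochberg). The study's quasi-likelihood test needs counts and was not run. Axl minus Mertk was tested by exact permutation of libraries. Scripts were tested on simulated data. The members and lists were chosen with earlier results of these data known. Named genes were the members, up to 4 DE genes of a list with the largest change in a comparison, and the genes nearest to a member by Pearson r at a mean log2 RPKM of at least 1. Promoters are from RefSeq, where both receptors matched, and gene positions from Gencode M21, a later release than the one used for counting. Tyro3 was not analysed here. Alternatives were other variance models, library weights, scalings, pseudocounts, filters, blocks and each library left out, and the fits within 1 set or without a fold limit in the fit with a set term were added after seeing the data. Same-numbered TG libraries share a numbered genotype label, read here as the animal, which gives the pairing, and their deviations from the group means correlated by 0.292 to 0.329 in 4 pairs. The study's methods count single mice as biological replicates, and the labels number the WT libraries 1 to 7.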

Additional observations from a re-analysis of the deposited data

How the results depend on the processing

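Axl kept its direction and its call in 17 of 18 alternatives between TG Me-X04- and WT (2.38 to 3.47 on the log2 scale), in 17 of 18 in TG Me-X04+ against TG Me-X04- (2.51 to 3.24) and in 18 of 18 between TG Me-X04+ and WT (5.25 to 6.12). The exceptions were the 7 libraries of set A alone, with 3.47 (limma adjusted p = 0.126) and 2.59 (adjusted p = 0.0859). Without each library in turn, Axl stayed called, at 2.88 to 3.24, 2.85 to 3.21 and 5.94 to 6.22. Axl minus Mertk was 2.94 with the replicate block (pairs within animals, exact permutation p = 0.125, the smallest that 4 pairs allow). The replicate block by animal changed no call of a member.

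Mertk became DE in TG Me-X04+ after quantile normalization, at -0.79 against TG Me-X04- and at -0.86 against WT. Its small differences turned sign between TG Me-X04- and WT (0.0816 with scaling outside mitochondrial genes, 0.0233 with the replicate number as a block, 0.16 in set A, and -0.0785 to 0.0231 without each library in turn) and in TG Me-X04+ against TG Me-X04- (0.00044 with library weights, 0.0402 in set B). Gas6 in TG Me-X04+ against TG Me-X04- turned to -0.16 with quantile normalization, -0.24 outside mitochondrial genes and -0.22 in set A, and ran from -0.26 to 0.33 without each library, turning without TG Me-X04- replicate 1 or 2 or TG Me-X04+ replicate 3 or 4. Against WT it was called at 1.18 with the replicate number as a block (limma adjusted p = 0.0475), whose numbers are other animals in WT, and at 0.70 with a set term and no fold limit. Pros1 between TG Me-X04+ and WT turned to -0.27 with quantile normalization, -0.0356 with the replicate number as a block and -0.0231 in set A, and in TG Me-X04+ against TG Me-X04- it was called at 0.44 with a set term and no fold limit. Scaling outside mitochondrial genes moved the median over all genes to 0.13, -0.37 and -0.27 in the 3 comparisons, against 0.01, -0.09 and -0.11. The causes were not tested.

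The number of DE genes between TG Me-X04- and WT was 36, and 175 with library weights, 13 at log2(value + 1), 19 with a filter at a mean log2 RPKM of 0, 18 with the replicate block, 101 with a set term, 112 without its fold limit, 0 in set A (1708 at an unadjusted p under 0.05) and 19 in set B. In TG Me-X04+ against TG Me-X04- it was 986, and 470 with only these groups, 2110 with the replicate block by animal, 2142 with a set term, 2431 without its fold limit, 85 in set A and 2262 in set B. Between TG Me-X04+ and WT it was 2562, and 3919 with a set term, 4540 without its fold limit and 1652 in set A. Without each library these counts ran from 19 to 33, from 552 to 1021 and from 2124 to 2605. TG Me-X04- replicates 1, 3 and 4 moved the first count most, to 19, 23 and 23, and TG Me-X04- replicate 5 and TG Me-X04+ replicate 2 the second, to 552 and 624. Quantile normalization changed the split of higher and lower calls in TG Me-X04+ against TG Me-X04- from 617 and 369 to 421 and 407, and scaling outside mitochondrial genes to 309 and 721, and between TG Me-X04+ and WT from 1481 and 1081 to 1227 and 1528.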
